A study of Mus musculus with 4 samples.

Results

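Hmga2 and the genes that work with it in the fetal blood progenitor programme were read from every probe set that carried the symbol Hmga1, Hmga2, Lin28a, Lin28b, Igf2bp1, Igf2bp2, Igf2bp3 or Arid3a as its single gene. This gave 18 of 45037 probe sets, which belonged to 6 of the 8 genes. Hmga2 had 4, Lin28a 2, Lin28b 1, Igf2bp1 4, Igf2bp3 6 and Arid3a 1, while Hmga1 and Igf2bp2 were not analysed here. Hmga2 was chosen by its measured values, which read lower in both libraries labelled Lyl1-null, so its difference between genotypes is given as a description without a test. The other genes were chosen for their place in the pathway.

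The cells were lymphoid-primed multipotent progenitors (LMPPs), an early bone marrow population that can form lymphoid and myeloid cells. They came from 2 groups of C57Bl/6 mice aged 6 to 8 weeks, Lyl1-null and wild type, with 2 libraries per group, each on its own expression array. All were sorted as cells without lineage markers that carried Kit and Sca-1 and had high Flt3. Lyl1 encodes a DNA-binding regulator, of the basic helix-loop-helix class, that acts in early blood cells. The labels refer to another publication for the allele and do not say whether a library came from 1 mouse or from pooled mice, so p-values reflect no more than the scatter among the 4 libraries, which may be technical.

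Hmga2 is an architectural chromatin protein that binds AT-rich DNA through short motifs called AT hooks. In mouse fetal blood stem cells it is abundant, and it falls as the animal matures. Lin28a and Lin28b are RNA-binding proteins that block the maturation of let-7 microRNAs. Mature let-7 in turn represses the messenger RNAs of Hmga2, of Arid3a and of the Igf2bp proteins, which bind and stabilise growth-promoting messages such as that of Igf2. High Lin28b and low let-7 therefore mark fetal progenitors, and the reverse marks adult ones.

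The let-7 family is shown because its shared seed is what links these genes. The array values used here do not measure mature microRNAs, so they give no let-7 level. RefSeq lists 10 let-7 guide strands in its GRCm38.p6 table, and 9 of them carry the seed GAGGUAG at bases 2 to 8. The capitals below mark the seed in 3 of the 9, which lie at chr13:48538239-48538260 on the minus strand, chr15:85707325-85707346 on the plus strand and chr9:106178846-106178867 on the plus strand.
mmu-let-7a-5p: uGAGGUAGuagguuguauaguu
mmu-let-7b-5p: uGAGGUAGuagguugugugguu
mmu-let-7g-5p: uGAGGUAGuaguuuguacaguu
The 3 differ only after the seed, so any of them could pair with the same seed match in a target.

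Hmga2 was the member chosen for its lower values in both libraries labelled Lyl1-null. For that reason the window around its start site is shown, from 250 bases before to 50 after it. It lies on the minus strand at chr10:120476420-120476719 in RefSeq's GRCm38.p6 table, and it is printed 5′ to 3′ along the gene. The capitals mark CTCTCT or its reverse complement AGAGAG, including overlapping matches.
Hmga2 promoter: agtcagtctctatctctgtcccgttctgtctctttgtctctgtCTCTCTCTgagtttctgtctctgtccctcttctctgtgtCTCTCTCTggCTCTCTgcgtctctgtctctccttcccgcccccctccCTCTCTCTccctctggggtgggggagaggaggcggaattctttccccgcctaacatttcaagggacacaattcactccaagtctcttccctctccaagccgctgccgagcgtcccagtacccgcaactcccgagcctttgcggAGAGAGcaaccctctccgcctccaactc
This window held 8 matches to CTCTCT or AGAGAG, and 0.268% of the 32851 promoter windows in the table held as many or more. C and T made up 69.0% of its bases, against a median of 49.7% over all windows. The motif is itself a repeat of C and T seen in this window, so these values overlap and are description only. The E-box CANNTG, the general recognition motif of basic helix-loop-helix factors, had 0 matches on either strand, while 72.3% of all windows held at least 1. The version CAGATG or its reverse complement CATCTG, present in 17.2% of windows, also had 0 matches, as did the GATA motif AGATAA or TTATCT, present in 11.2%. These letters are thus not in this window, which covers only a small stretch of the gene's surroundings.

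Before the members, the libraries were checked on the targeted gene. Of the libraries labelled Lyl1-null, replicate 1 read 5.14 for Lyl1 and replicate 2 read 10.32, against 12.34 and 12.29 in wild type, on the log2 scale of the deposited values. The library labelled Lyl1-null replicate 2 thus kept 25.1% of the wild-type mean, which goes against its label, and the one labelled replicate 1 kept 0.692%. The X-inactivation RNA Xist stood at 14.26 in that replicate 2 library and at 5.81 to 6.30 in the other 3. The members' values are therefore given library by library, and some results that rest on that replicate are also given without it. Other genes are at times given by their mean difference alone, which may lie mostly in that replicate. Kit and Flt3, the markers named for the sort that had a probe set, were above the expression filter, as were 5 of 6 erythroid, 4 of 6 B cell and 4 of 7 neutrophil markers. The filter, a log2 value of 5.69, is the median of all probe-set means.

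Hmga2 was lower in both libraries labelled Lyl1-null, in each of its 4 probe sets. The brightest, 1422851_at, read 7.36 and 7.20 in the libraries labelled Lyl1-null and 9.62 and 10.18 in wild type. Probe set 1450780_s_at, whose suffix marks probes that can match several transcripts, read 7.29 and 7.18 in the libraries labelled Lyl1-null and 9.40 and 10.004 in wild type. The groups did not overlap in either probe set, and the gap between them was wider than that between the wild-type libraries. Probe set 1450781_at read 4.78 and 5.28 in the libraries labelled Lyl1-null and 7.53 and 7.71 in wild type. Probe set 1446196_at, designed on a different source sequence from the other 3, read 4.96 in each library labelled Lyl1-null and 7.16 and 7.36 in wild type. Those 2 equal values match to 5 decimals, as do the values of 165 of 45037 probe sets between these libraries and of 311 between the wild-type libraries, so the libraries are not copies of each other.

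The Lyl1-null minus wild-type differences of the 4 probe sets were −2.62, −2.47, −2.59 and −2.30 on the log2 scale, in the order in which they were described. For the brightest probe set, the means were 7.28 ± 0.11 in the libraries labelled Lyl1-null and 9.90 ± 0.40 in wild type (SD, n = 2 each), a 6.14-fold lower level. Fewer cells with Hmga2 and less Hmga2 RNA per cell cannot be told apart in such bulk samples. All 4 probe sets passed the filter, but 2 of them did so through the wild-type libraries, being below 5.69 in both libraries labelled Lyl1-null. At such values background signal compresses a difference. Over all probe sets, 0.0222% read at least 4-fold under the wild-type mean in both libraries labelled Lyl1-null, which is 10 probe sets. The 4 of Hmga2 were among these 10. Hmga2 was chosen for reading lower and the cut lies just under its differences, so this count is description only. Another 4 belonged to Ctse, Cxcr4, Ankrd6 and Ndn, and 2 carried no gene name.

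**Figure D1:**
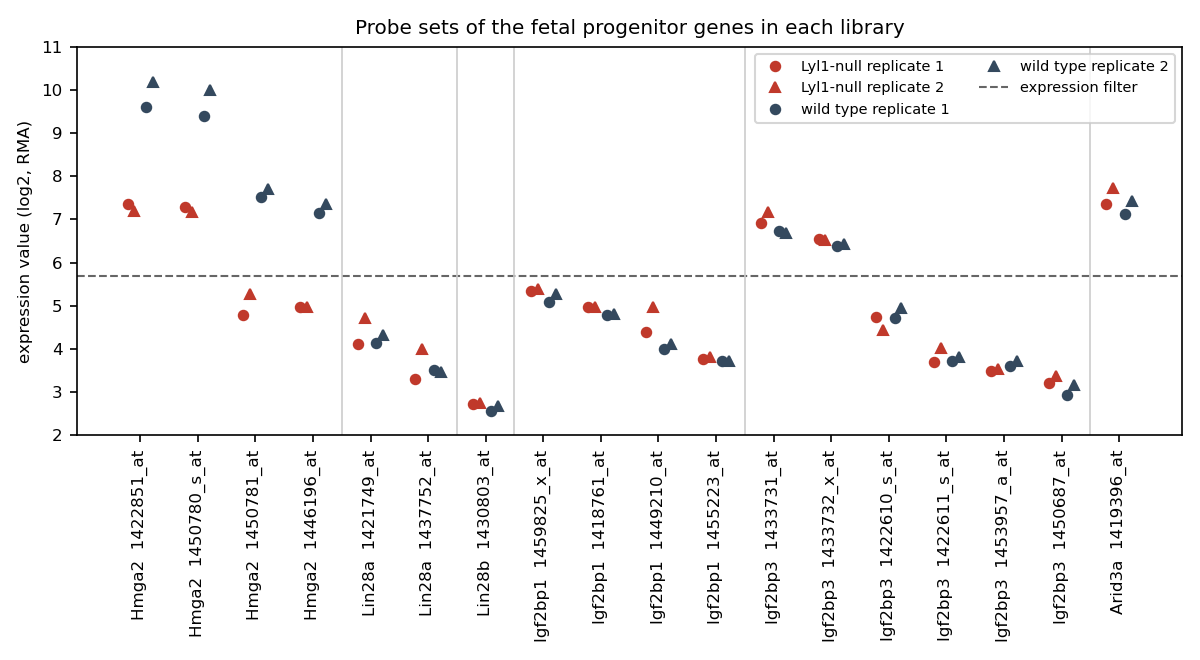
Expression values (log2, RMA) of the 18 probe sets in each library, with the 2 libraries labelled Lyl1-null in red to the left of the 2 wild-type libraries in dark blue, and the expression filter of 5.69 as a dashed line. The 4 Hmga2 probe sets separate the groups, with 2 of them crossing the filter, and those of the other genes lie close together.

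The size of the Hmga2 difference was similar in both libraries labelled Lyl1-null, although these differed widely in Lyl1. The brightest Hmga2 probe set kept 17.2% of the wild-type mean in replicate 1 of the libraries labelled Lyl1-null and 15.4% in replicate 2. For Lyl1 the same shares were 0.692% and 25.1%. Over the 4 probe sets the difference ranged from −2.84 to −2.30 without the library labelled replicate 2, and from −2.70 to −2.30 without the one labelled replicate 1.

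The spread of Hmga2 within a genotype depended on the probe set. The brightest differed by 0.16 between the libraries labelled Lyl1-null, and 70.2% of the 11196 genes tested differed as much or more between that pair. It differed by 0.57 between the wild-type libraries, and 3.28% of the genes tested differed as much or more between those. Probe set 1450781_at had the opposite order, with gaps of 0.50 between the libraries labelled Lyl1-null and 0.18 between the wild-type libraries. Leaving out the first wild-type library gave an Hmga2 difference of −2.90, and leaving out the second gave −2.34. The processed pseudogene Hmga2-ps1 has its own probe set, 1440559_at, which lay below the filter on average. It read 5.66 and 5.11 in the libraries labelled Lyl1-null and 5.36 and 5.58 in wild type, with overlapping groups and a difference of −0.08.

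Lin28a and Lin28b, the RNA-binding proteins at the top of the pathway, were below the filter in all 4 libraries. Lin28b, the form known from fetal blood stem cells, read 2.71 and 2.75 in the libraries labelled Lyl1-null and 2.55 and 2.67 in wild type. Its difference of 0.12 (SE 0.15) did not pass limma's test over all 45037 probe sets (adjusted p = 0.757). Lin28a, the form best known from embryonic stem cells, had 2 probe sets. The first, 1421749_at, read 4.11 and 4.71 in the libraries labelled Lyl1-null and 4.13 and 4.33 in wild type. The second, 1437752_at, read 3.31 and 3.98 in the libraries labelled Lyl1-null and 3.50 and 3.47 in wild type. In both, only the library labelled Lyl1-null replicate 2 lay above the wild-type libraries, while the one labelled replicate 1 lay below them. The differences were 0.18 (adjusted p = 0.765) and 0.16 (adjusted p = 0.797), and the first was −0.12 without the library labelled Lyl1-null replicate 2. A change that stays below background cannot be detected by these probe sets.

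The Igf2bp genes encode RNA-binding proteins that are abundant in the embryo and are repressed by let-7. Igf2bp1 was below the filter in all 4 libraries in each of its 4 probe sets. The one with the largest difference, 1449210_at, read 4.38 and 4.97 in the libraries labelled Lyl1-null and 3.99 and 4.12 in wild type. Its difference was 0.62 (SE 0.23, unadjusted p = 0.0366, adjusted p = 0.581), with no overlap between the groups and the libraries labelled Lyl1-null contributed 0.33 in replicate 1 and 0.91 in replicate 2. The brightest, 1459825_x_at, whose suffix marks probes open to cross-hybridisation, read 5.33 and 5.39 in the libraries labelled Lyl1-null and 5.08 and 5.27 in wild type. The differences of the other 3 probe sets lay between 0.07 and 0.19. All 4 were positive and without overlap, but probe set 1455223_at turned to −0.07 with quantile normalization and to −0.01 with median centring of the arrays.

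Igf2bp3, the family member also known as a partner of Lin28b in fetal-type B lymphopoiesis in the mouse, was the 1 Igf2bp gene above the filter. Its 6 probe sets fell into 2 that were above the filter in every library and 4 that were below it. Probe set 1433731_at read 6.92 and 7.17 in the libraries labelled Lyl1-null and 6.73 and 6.69 in wild type. Its difference was 0.34 (SE 0.17, adjusted p = 0.644 over 11196 genes in limma), the groups did not overlap, and leaving out the library labelled Lyl1-null replicate 2 gave 0.22. Probe set 1433732_x_at, made on the same source sequence, read 6.55 and 6.52 in the libraries labelled Lyl1-null and 6.37 and 6.43 in wild type, a difference of 0.14. The 4 dim probe sets went both ways, from −0.24 for 1422610_s_at to 0.25 for 1450687_at. The 2 Igf2bp3 probe sets above the filter were therefore both positive without passing the test, while the 4 dim ones did not give 1 direction.

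Arid3a, a DNA-binding factor of B cells and blood stem cells that let-7 represses in the mouse, was above the filter in all 4 libraries. It read 7.35 and 7.72 in the libraries labelled Lyl1-null and 7.14 and 7.42 in wild type. The groups overlapped, and the difference of 0.25 (SE 0.21) did not pass (adjusted p = 0.680). Leaving out the library labelled Lyl1-null replicate 2 gave 0.07, and leaving out replicate 1 gave 0.44.

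Neither of the members tested beside Hmga2 at the gene level, Igf2bp3 and Arid3a, passed in limma, and neither had an unadjusted p under 0.05. Of all 11196 genes, 0.00893% passed, which is 1 gene. In the fit of all probe sets, 0 of the 14 probe sets of the other members passed, against 0.00444% called over the table. An unadjusted p under 0.05 was read in 1 of the 14, where 6.84% of all genes tested reached it in the gene-level fit. Of these 14, 12 had a positive difference and 2 a negative one. Groups did not overlap in 8 with higher values and 1 with lower values in the libraries labelled Lyl1-null, against 27.3% and 17.0% of all probe sets.

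These positive signs have to be read beside the level. Over the 22518 probe sets below the filter, the median difference was 0.14, and 75.5% of them were positive. Groups did not overlap with higher values in the libraries labelled Lyl1-null in 37.2% of them, and with lower values in 7.56%. Replicate 1 of the libraries labelled Lyl1-null shifted by 0.06 and replicate 2 by 0.21. Of the 14 probe sets, 11 were below the filter, with a median difference of 0.16, close to that of all dim probe sets. Among the 11, 6 were higher without overlap, 4 of them from Igf2bp1, and 1 was lower. With quantile normalization, the median of all dim probe sets was 0.02 and that of the 11 was 0.04, with 7 of 11 positive.

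**Figure D2:**
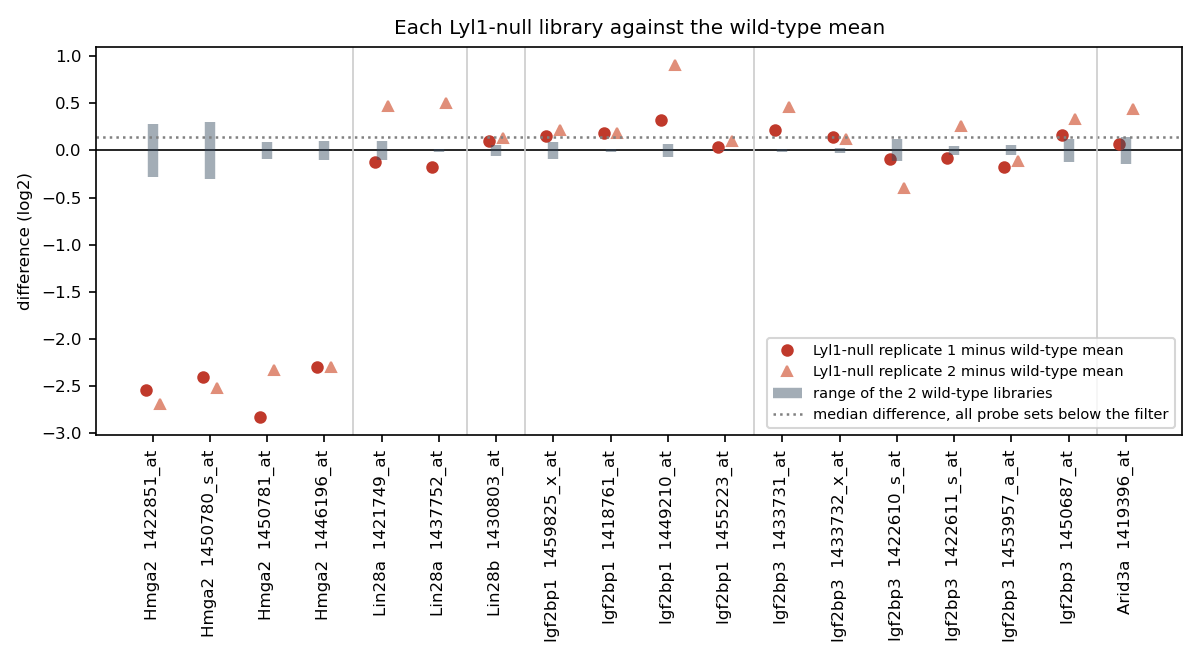
Difference of each library labelled Lyl1-null from the wild-type mean (log2) for the 18 probe sets, with grey bars for the range of the 2 wild-type libraries and a dotted line at 0.14, the median difference of all probe sets below the filter. Hmga2 lies between −2.84 and −2.30 in both libraries labelled Lyl1-null, and most other points lie near the dotted line.

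**Figure D3:**
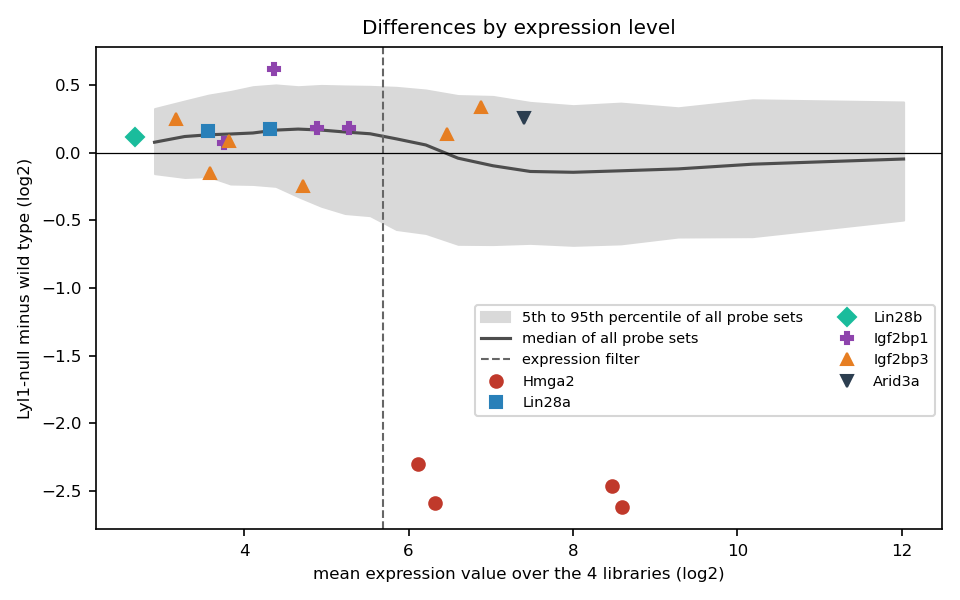
Lyl1-null minus wild type (log2) against the mean expression value over the 4 libraries (log2) for the 18 probe sets, with the median and the 5th to 95th percentile of all probe sets in 20 bins of level. The median is above 0 in the bins up to a mean level of 6.21 and under 0 from 6.60 upwards, the 4 Hmga2 probe sets lie far below the grey band, and the Igf2bp1 probe set at 0.62 lies above it.

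The machinery that makes and uses let-7 was described next. It includes the nuclease Dicer1, the Argonaute proteins and the uridylyl transferases that act with Lin28. Of 20 listed genes, 19 were tested and 0 passed in limma. A negative difference was read in 15 of the 19 and a positive one in 4, where 56.9% of all genes tested were negative and 43.1% positive. The median was −0.11, against −0.05 over all genes. Quantile normalization moved the median of all genes to 0.04 and median centring moved it to −0.12, and 13 and 16 of these 19 genes were then negative. Ago4, an Argonaute protein, read 7.75 and 8.02 in the libraries labelled Lyl1-null and 8.62 and 8.52 in wild type, a difference of −0.68 (adjusted p = 0.644). Tnrc6b, a partner of the Argonautes in silencing, had a difference of −0.47 (adjusted p = 0.644).

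Known let-7 targets outside the members went both ways. Of 30 listed genes, 21 were tested, 9 had a positive and 12 a negative difference, and 0 passed. Their median was −0.10, and 0.01 with quantile normalization, under which 11 were positive and 10 negative. Mycn, a growth-promoting transcription factor that let-7 represses, read 12.16 and 12.04 in the libraries labelled Lyl1-null and 11.54 and 11.59 in wild type. The groups did not overlap and the difference was 0.53 (SE 0.16, adjusted p = 0.644), and the remaining probe sets above the filter gave 0.29 and 0.09. The kinase gene Map4k4 had a difference of −0.61 (adjusted p = 0.644).

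Among genes known from fetal blood stem and progenitor cells, 20 were listed, 9 tested and 0 passed. The median of the 9 was −0.14, with 3 positive and 6 negative, and it was −0.02 with quantile normalization. When replicate 1 of the libraries labelled Lyl1-null was left out, 5 were positive and 4 negative, with a median of 0.0042. Ndn, an imprinted growth suppressor of blood stem cells, read 5.75 and 6.08 in the libraries labelled Lyl1-null and 7.43 and 7.12 in wild type. Its difference of −1.35 (SE 0.21, adjusted p = 0.297) was larger than the gap within either genotype, and 3 further probe sets above the filter gave −1.54, −0.65 and −2.20. The imprinted noncoding RNA Meg3, named after its values were seen, had the highest difference in the list at 1.46. It read 6.88 and 8.84 in the libraries labelled Lyl1-null and 6.45 and 6.34 in wild type, so most of that lay in the library labelled replicate 2, and further Meg3 probe sets gave smaller differences such as 0.09 and 0.53. The embryonic globin genes Hbb-bh1, Hbb-y and Hba-x were below the filter in all 4 libraries, with differences of 0.30, 0.19 and 0.16.

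Genes associated with adult blood progenitors comprised 15 listed and 14 tested genes. Of the 14, 12 had a negative and 2 a positive difference, the median was −0.12, and 0 passed. This split was 6 negative to 8 positive with quantile normalization. The interleukin-7 receptor gene Il7r had a difference of 0.65 and the quiescence factor gene Klf2 one of −0.93, both at an adjusted p of 0.644. A further Il7r probe set gave 0.27. Dntt, which encodes terminal transferase and is silent in most fetal lymphoid cells, read 14.24 and 14.02 in the libraries labelled Lyl1-null and 14.17 and 14.21 in wild type. The groups overlapped and the difference was −0.06, while its other probe sets gave 0.28 and −0.25.

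Insulin-like growth factor genes were included because Igf2bp proteins were first named for Igf2. Of 20 listed genes, 12 were tested, 4 had a positive and 8 a negative difference, and 0 passed, with a median of −0.12. When replicate 2 of the libraries labelled Lyl1-null was left out, 6 were positive and 6 negative, with a median of −0.03. The ligand gene Igf2 was below the filter on average, at 5.38 and 5.94 in the libraries labelled Lyl1-null and 5.06 and 5.37 in wild type. The receptor gene Igf1r had a difference of −0.41 (adjusted p = 0.644), but 1 of its 3 further probe sets gave 0.27. The adaptor gene Irs1 read 6.15 and 7.26 in the libraries labelled Lyl1-null and 5.70 and 5.08 in wild type, a difference of 1.31 (SE 0.41, adjusted p = 0.644), or 0.76 when the library labelled Lyl1-null replicate 2 was left out. Of 20 partners of the Igf2bp proteins and factors of the m6A mark that they bind, 18 were tested, 7 were positive and 11 negative, and 0 passed. Their median was −0.04, and 0.03 with quantile normalization. The RNA-binding partner gene Stau1 had a difference of −0.40, but its 2 further probe sets gave −0.03 and −0.05. Syncrip had a difference of −0.25, and its 3 further probe sets gave −0.26, −0.04 and −0.29.

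The other high-mobility-group proteins, which bend or loosen DNA as Hmga2 does, had differences in both directions. Of 17 listed genes, 11 were tested, 5 were positive and 6 negative, with a median of −0.08, and 0 passed. The median was 0.02 when replicate 2 of the libraries labelled Lyl1-null was left out. Hmgxb4 read 8.92 and 8.59 in the libraries labelled Lyl1-null and 9.45 and 9.58 in wild type, a difference of −0.76 (adjusted p = 0.644), while a further probe set gave −0.12. Hmgn5 had a difference of −0.43. Hmgb3, named after its values were seen, read 12.07 and 9.86 in the libraries labelled Lyl1-null and 12.20 and 12.05 in wild type. Its difference of −1.16 was thus almost all in the library labelled replicate 2.

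Relatives of Arid3a that share its ARID DNA-binding domain had mostly lower values in their brightest probe sets, without passing the test. Of 14 listed genes, 12 were tested and all 12 had a negative difference, with a median of −0.30, while 0 passed. Of all genes tested 56.9% were negative, with a median of −0.05. At mean levels from 7.03 to 12.02, the bins of all probe sets had medians of −0.14 to −0.05. With median centring 12 were negative too, but with quantile normalization 9 were negative and 3 positive, as was the case without the library labelled Lyl1-null replicate 2. Arid5b, a lymphoid and metabolic regulator, read 8.51 and 8.82 in the libraries labelled Lyl1-null and 9.21 and 9.26 in wild type, a difference of −0.57 (adjusted p = 0.644). Arid4b had a difference of −0.70 (adjusted p = 0.644), and a further probe set gave −0.21. Kdm5b, named after its values were seen, had a difference of −0.38, but its further probe sets went both ways, at 0.65 and −0.39. Arid3b, the closest relative of Arid3a, was below the filter, at 5.16 and 4.89 in the libraries labelled Lyl1-null and 5.22 and 5.12 in wild type.

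Genes reported downstream of Hmga2 in other mouse or human cells were mixed. Of 15 listed genes, 8 were tested, 4 were positive and 4 negative, with a median of −0.02, and 0 passed. The median was 0.11 with quantile normalization. Cdkn1a, a cell cycle inhibitor, read 10.96 and 11.80 in the libraries labelled Lyl1-null and 9.51 and 9.28 in wild type. Its difference was 1.98 (SE 0.30, adjusted p = 0.297), which did not pass. The difference was 1.56 when only replicate 1 of the libraries labelled Lyl1-null was kept, and 2.40 when only replicate 2 was kept. With 1 such library kept, the scatter within groups comes from the wild-type pair alone, so these 2 values are given without a test. A further probe set gave 0.74. Cdkn2a, an inhibitor gene that Hmga2 is known to hold down in mouse neural stem cells, and the inhibitor gene Cdkn2b were below the filter in all 4 libraries. Cdkn2a read 4.30 and 4.46 in the libraries labelled Lyl1-null and 4.12 and 4.20 in wild type. Junb, a transcription factor gene known to act between Hmga2 and Cdkn2a, read 7.39 and 5.77 in the libraries labelled Lyl1-null and 7.43 and 7.38 in wild type. Its difference of −0.82 thus lay in the library labelled replicate 2.

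Over these 9 lists, 117 distinct genes were tested and 0 passed in limma, while 15 had an unadjusted p under 0.05, which is 12.8% against 6.84% of all genes tested. Without the library labelled Lyl1-null replicate 1, 18 of the 117 passed, or 15.4%, against 14.8% of all genes. Of the 18, 12 were lower and 6 higher, where 10.8% of all genes were lower and 3.94% higher. Without the one labelled replicate 2, 1 of the 117 passed, Cdkn1a, against 0.196% of all genes.

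Genes next to Hmga2 on chromosome 10 were read, in a comparison added after the data had been seen, in the order of RefSeq's GRCm38.p6 table. Of the 10 genes on each side with a probe set, 4 and 4 were tested. The 4 tested genes that precede Hmga2 in the table, Dyrk2, Cand1, Helb and Tmbim4, had differences from 0.04 to 0.48, but 3 of these 4 turned negative when only replicate 1 of the libraries labelled Lyl1-null was kept. The 4 that follow it, Msrb3, Lemd3, Rassf3 and Tbk1, had lower values in the libraries labelled Lyl1-null in their brightest probe sets, without overlap, where 24.0% of all genes tested and 27.6% of the 526 tested on chromosome 10 were. All 4 were also negative with quantile normalization and with median centring. Msrb3, a methionine sulfoxide reductase gene, read 8.87 and 8.56 in the libraries labelled Lyl1-null and 10.39 and 9.60 in wild type, a difference of −1.28 (adjusted p = 0.642). Lemd3, which encodes an inner nuclear membrane protein, had a difference of −0.61, but its 2 further probe sets above the filter gave −0.02 and −0.08. Rassf3 had a difference of −0.39, and its further probe set went the other way at 0.10. The kinase gene Tbk1 had a difference of −0.33, and its further probe set gave −0.60. None of the 8 passed in limma. Of the 5 genes tested among the next 10 beyond Tbk1, 2 were negative and 0 were lower without overlap. Lin28b and Arid3a lie on chromosome 10 too, but were not among these neighbours.

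**Figure D4:**
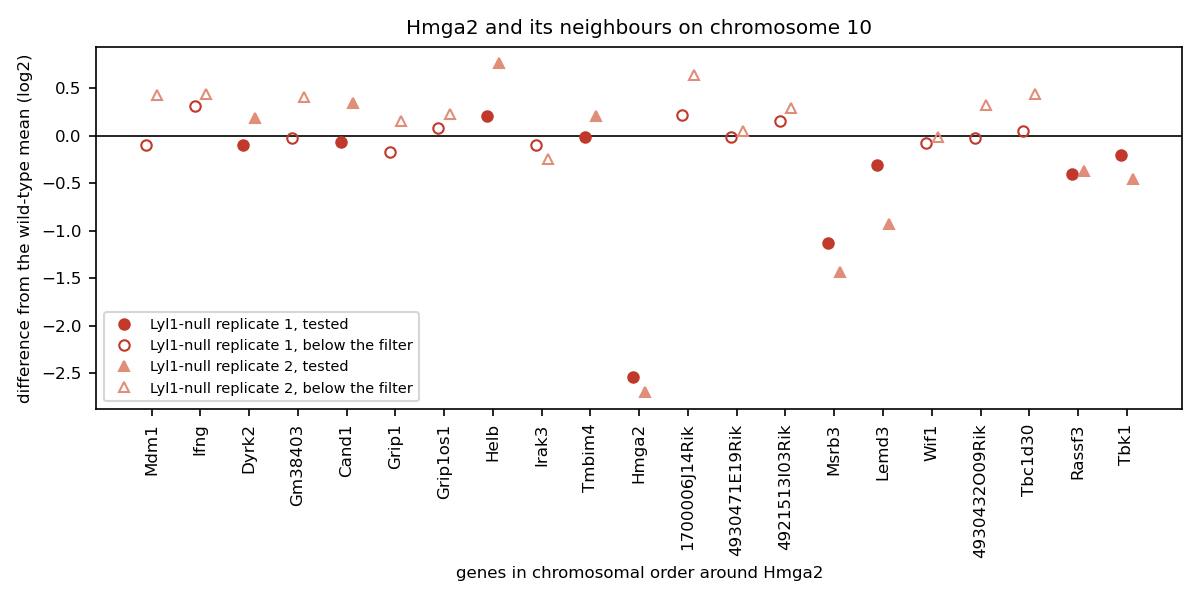
Difference of each library labelled Lyl1-null from the wild-type mean (log2) for Hmga2 and the 10 genes with a probe set on each side of it, in chromosomal order, with filled points for genes tested and open points for genes below the filter. Msrb3, Lemd3, Rassf3 and Tbk1 lie below 0 in both libraries, and the tested genes on the other side lie on both sides of 0.

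The genes whose pattern over the 4 libraries was most like that of Hmga2 were found by Euclidean distance between profiles after each gene's own mean was subtracted, over 10687 other named genes. They were Cxcr4 (distance 0.51), Ankrd6 (0.67), Ptprv (0.82), Lpcat2 (0.86) and Chl1 (0.91). Cxcr4, the receptor for the marrow chemokine Cxcl12, read 8.80 and 9.11 in the libraries labelled Lyl1-null and 11.64 and 11.67 in wild type. Ptprv, a receptor tyrosine phosphatase gene, read 7.17 and 6.53 in the libraries labelled Lyl1-null and 8.61 and 8.90 in wild type. Lpcat2, a lysophospholipid acyltransferase gene, read 7.37 and 6.50 in the libraries labelled Lyl1-null and 8.62 and 9.11 in wild type, but its other probe set above the filter differed by 0.21. Arid3a and Igf2bp3 lay at distances of 2.90 and 3.0. With 4 libraries such likeness rests mostly on the size of the group difference, and no test was made of it.

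**Figure D5:**
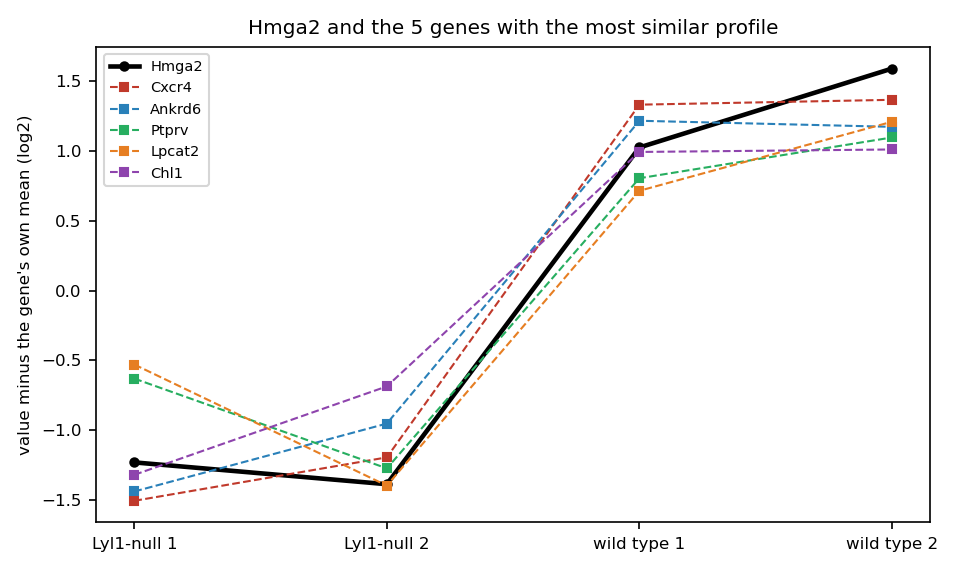
Expression value minus the gene's own mean over the 4 libraries (log2) for Hmga2 and the 5 genes with the smallest distance to it. All 6 are below their mean in both libraries labelled Lyl1-null and above it in both wild-type libraries.

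Markers of other cells were read beside Hmga2. All 7 neutrophil markers with a probe set had a positive difference, where 75.5% of all probe sets below the filter and 40.6% of those above it did. Of the 7, 4 were above the filter on average and 0 of these passed, with adjusted p-values of 0.191 for Ngp and 0.440 for Camp in limma. Their summed level on the linear scale was 1527 to 1861 in the libraries labelled Lyl1-null and 437 to 610 in wild type. Kit and Flt3 from the sort, and Cd34 and Ptprc, which LMPPs also express, had negative differences, and the sums over these 4 genes were 10521 to 14403 in the libraries labelled Lyl1-null and 16407 to 17719 in wild type. Kit had a difference of −0.90 and Flt3 one of −0.49, neither past the test (adjusted p = 0.644 each). Of 7 stem cell markers, 4 had a positive difference, with sums of 3983 to 4849 in the libraries labelled Lyl1-null and 4788 to 5680 in wild type. Of these 4, Slamf1, Fgd5 and Vwf lay below the filter on average. All 6 B cell markers were positive too, with sums of 2101 to 2442 in the libraries labelled Lyl1-null and 1753 to 1756 in wild type. Positive differences were also read in 5 of 7 T and NK cell and 2 of 7 granulocyte-monocyte progenitor markers. The same held for 2 of 6 erythroid, 3 of 5 megakaryocyte, 3 of 6 macrophage and dendritic cell and 2 of 5 stroma markers. The part of these shifts in the Hmga2 difference was not tested.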

How the data were processed

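The deposited values are log2 expression values per probe set, made by the authors with RMA, per the submitters' processing notes; the sources used here do not give its version or whether the 4 arrays were normalized alone. RMA corrects background and equalises the arrays, yet the deposited medians were 5.68 and 5.76 in the libraries labelled Lyl1-null and 5.65 in each wild-type library. Values were used as deposited. With 4 arrays, their number limits the precision.

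Of 45037 probe sets, 34945 had 1 gene symbol in the platform annotation, 932 had several and 9160 had none listed. Each of 18193 genes was read from its brightest probe set, and 11196 with a mean of at least 5.69 were tested. A second fit took all 45037 probe sets, without a filter. Both used limma 3.58.1 under R 4.3.3 (lmFit, eBayes, two-sided, Benjamini-Hochberg at 0.05), and every adjusted p comes from them. The gene-level fit was tested on simulated data, and the fit of all probe sets was not. Differences are Lyl1-null minus wild type.

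The members, lists, tests and naming rule were chosen with earlier results of these data known. The rule named all members, Lyl1, Xist, Eif2s3y, Kit, Flt3 and the 5 genes nearest to Hmga2. From each list it named up to 4 genes past the test, or else the 2 with the smallest p. Embryonic globins, Dntt, Igf2, Arid3b, Cdkn2a and Cdkn2b are named beyond it. So are Meg3, Hmgb3, Kdm5b and the neighbours of Hmga2, all chosen after their values were seen. Same-numbered libraries deviated from their group means with a correlation of −0.41 over genes, so the numbers do not pair them.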

Additional observations from a re-analysis of the deposited data

How the results depend on the processing

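Among the other members, 0 genes and 0 probe sets passed under each of the 16 and 13 alternatives run, of which the replicate block is one and the crossed block, chosen after seeing the data, another. The brightest Hmga2 probe set stayed between −2.90 and −2.34 over 11 alternatives. With 1 library left out Lin28a ranged from −0.12 to 0.48, turning negative without the one labelled Lyl1-null replicate 2; the cause was not tested. Arid3a, Igf2bp1, Igf2bp3 and Lin28b kept the sign of their brightest probe set in every alternative run. The count of all genes past the test, 1 as reported, was 4 without a filter, 2 with quantile normalization, 2 with median centring, 4 with a trended prior, 5 with array weights, 6 at a threshold of 0.10, 0 with the mean of probe sets (736 genes at an unadjusted p under 0.05 in limma) and 2 over all probe sets at or above the filter. It was 3 with the replicate number as a block and 1 when unlike numbers were paired. With 1 library left out it ranged from 1 to 1652, the highest without the library labelled Lyl1-null replicate 1. A fit without 1 library assumes that the lone library of its group varies like the others. Genes of the lists past the test ranged from 0 to 18 with 1 library left out. Signal near background limits what can be read for Lin28a, Lin28b and Igf2bp1.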
